A study of Mus musculus with 8 samples.

Results

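The *Meis*, *Pknox*, *Pbx* and *Shox2* genes were followed in sorted *Bapx1*-EGFP cells of the embryonic forelimb. All probes that the platform annotation assigns to *Meis1*, *Meis2*, *Meis3*, *Pknox1*, *Pknox2*, *Pbx2*, *Pbx3* or *Shox2* alone were taken, which gave 27 of the 45281 probes and 8 of the 19057 genes that the annotation names for single-gene probes. Of these, 19 passed a filter for detection (a detection p below 0.05 on 4 or more of the 8 arrays), and each of the 8 genes kept at least 1 probe. The cells came from mouse forelimbs at E12.5 on a mixed C57BL/6J;129 background and were sorted on fluorescence from the *Bapx1* (*Nkx3-2*) locus, with 4 wildtype and 4 *Bapx1* null arrays, 1 per sorted sample. Wildtype embryos carried EGFP behind an internal ribosome entry site after an intact *Bapx1* coding sequence, which the paper writes as a heterozygous allele. Null embryos were homozygous for EGFP placed just behind the start codon. All arrays are thus of cells sorted on a reporter, but its design and copy number go with the genotype and cannot be told apart from it. The purity of the sort and the level of EGFP were not examined. The methods call the replicates biological, and the number of embryos pooled for each is not given in the sources used here.

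Meis, Pknox and Pbx proteins are homeodomain transcription factors of the TALE class, named for a loop of extra residues between the first helices of the homeodomain. Meis and Pknox (Prep) proteins bind Pbx partners, carry them into the nucleus and, with Hox proteins, form complexes on DNA. In the limb bud *Meis1* and *Meis2* are known as markers of the proximal part, the future upper arm, where retinoic acid favours and distal FGF signals oppose them. *Shox2* encodes a paired-type homeodomain factor needed for the proximal long bones, and *Bapx1* itself encodes a homeodomain factor of the Nk class.

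The median probe intensity lay between 57.9 and 70.4 over the arrays, and 43.8% to 46.1% of probes were detected. Both *Bapx1* probes were undetected on all 4 wildtype arrays (normalized log2 intensity 4.41 to 4.61) and detected on all 4 null arrays (7.36 to 8.09). Where these probes lie with respect to the EGFP insertion was not examined, so they do not check the labels. Of 15 limb bud mesenchyme factors with a probe, 13 passed the filter, including the forelimb gene *Tbx5*, which was detected on all arrays. In the null, 8 of 9 megakaryocyte and platelet genes, 9 of 11 macrophage genes, 7 of 10 muscle genes and 3 of 9 endothelial genes fell. Null replicates 2 and 3 stood apart by *Xist* (8.99 and 6.57, against 11.26 and 11.58 in null replicates 1 and 4 and 10.57 to 12.02 in the wildtype) and by Y-linked genes. Log2 changes below are null minus wildtype, so that negative values are lower in the null. P-values of changes are from limma's two-sided moderated test, adjusted by Benjamini-Hochberg over all 20593 kept probes.

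*Meis1*, *Meis2* and *Shox2* were lower on average in the null at each of their 9 kept probes, but only 1 of these probes, of *Meis2*, passed the test. *Pknox2* rose at its brightest probe. *Meis3*, *Pknox1*, *Pbx2* and *Pbx3* had no probe past the threshold. Thus 2 of 19 member probes were called (10.5%), 1 higher and 1 lower, against 3.97% of all kept probes, of which 1.85% were higher and 2.12% lower. The median change of the member probes was -0.13, and that of all kept probes 0.01. Groups did not overlap at 5 of the 19 member probes (26.3%), against 12.3% of all. At an unadjusted p under 0.05 there were 9 of the 19 member probes, against 17.4% of all kept probes. Apart from the brightest *Pknox2* probe, these were all probes of *Meis1*, *Meis2* or *Shox2*. Several probes of one gene read the same RNA and are not independent.

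**Figure D1:**
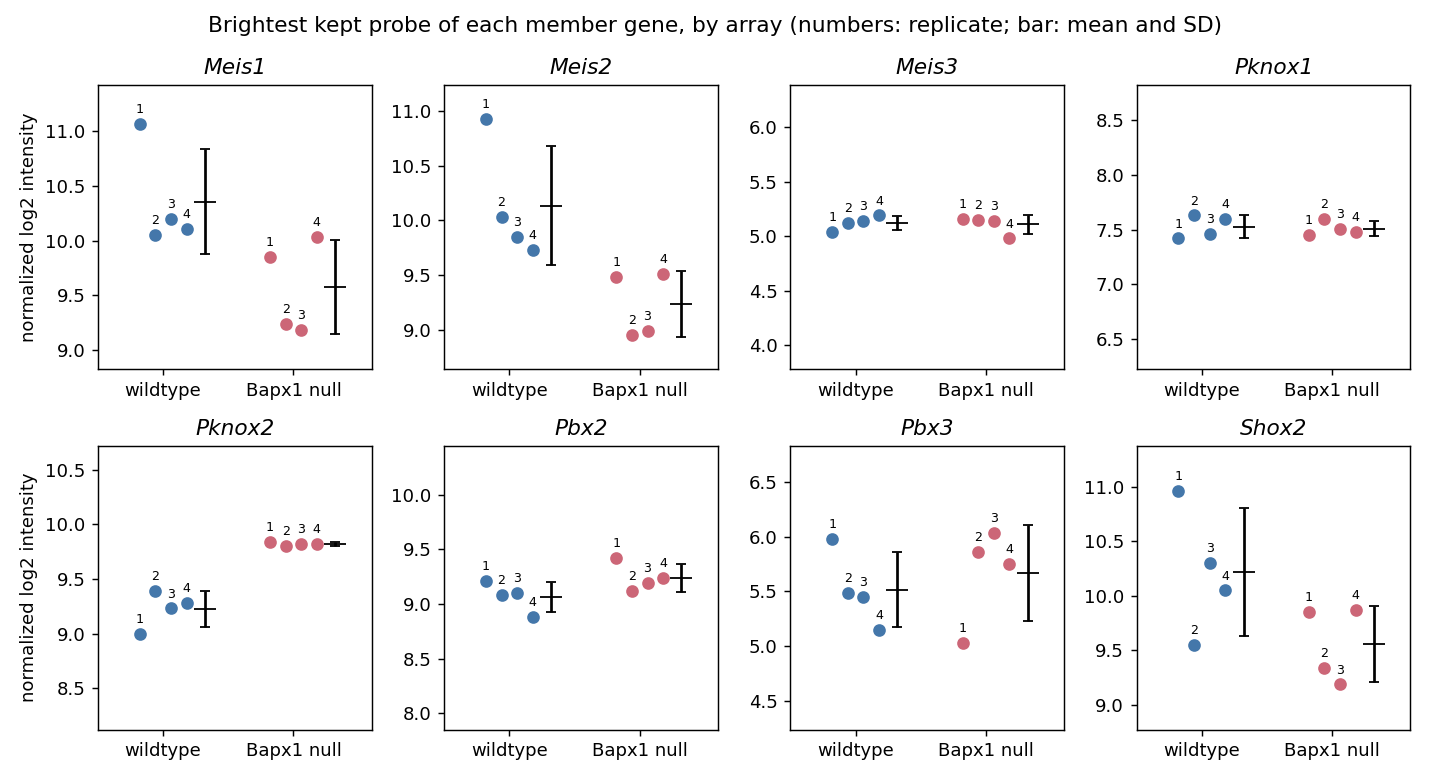
Normalized log2 intensity (vertical axis) of the brightest kept probe of each member gene in the 4 wildtype (blue) and 4 *Bapx1* null (red) arrays, with replicate numbers beside the points and the mean and SD at the right of each group; every panel spans the same number of log2 units. *Pknox2* is higher on all 4 null arrays (9.80 to 9.84) than on any wildtype array (9.0 to 9.39), whereas *Meis1*, *Meis2* and *Shox2* spread widely within both groups, with wildtype replicate 1 on top.

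*Meis2*, which acts in limb, heart and neural crest development, showed the largest decrease among the members. At the third of its 4 probes the wildtype arrays read 7.94, 7.15, 6.87 and 6.83 in normalized log2 intensity (replicates 1 to 4), and the null arrays 6.06, 5.74, 5.81 and 6.50. The groups did not overlap, and the wildtype ran highest in replicate 1. The change was -1.17 ± 0.25 (SE), a fold of 2.26 with an adjusted p of 0.033, from 7.20 ± 0.51 to 6.03 ± 0.34 (SD, n = 4 each). The annotation ties this probe to a cDNA record outside RefSeq, whereas the 2 brightest probes of *Meis2* are tied to a RefSeq transcript. Its larger change went with the background correction. Without that step the third probe was at -0.86 (adjusted p = 0.03), and the 2 brightest were also at -0.86. The call was lost in 12 of 21 alternative analyses (-1.34 to -0.78, adjusted p from 0.0041 to 0.16), among them the scaling of the methods (adjusted p = 0.12), the authors' processed table (0.097), no detection filter (0.083), the methods' t-test (0.14) and the replicate block (0.061).

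Those 2 brighter probes did not pass. The first read 10.93, 10.03, 9.85 and 9.73 in the wildtype and 9.48, 8.95, 8.99 and 9.51 in the null. Again every null array lay below every wildtype array. Its change was -0.90 ± 0.25 (SE, adjusted p = 0.094), with a 95% confidence interval from -1.47 to -0.33. The second gave the same size, -0.90 ± 0.25 (adjusted p = 0.086), between 9.65 and 10.66 in the wildtype and between 8.70 and 9.51 in the null. The groups overlapped only at the fourth and dimmest probe, detected on 7 arrays (6.28 to 7.13 against 4.96 to 6.48), at -0.74 ± 0.32 (adjusted p = 0.27). In the deposited intensities, before background correction and scaling between arrays, the 2 brightest probes overlapped between the genotypes. The first had its lowest wildtype array at 706.1 and its highest null array at 756.8, and the second at 726 and 756.2. The third did not overlap, by a narrow margin (126.6 against 123.9). On the normalized values, for each of the first 3 probes, exact permutation of the genotypes (two-sided, 70 assignments) gave p = 0.029, the smallest value possible.

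*Meis1* is known for proximal limb identity and also for blood stem cells and megakaryocytes. Its brightest probe read 11.07, 10.05, 10.20 and 10.11 in the wildtype and 9.85, 9.24, 9.18 and 10.03 in the null. The groups did not overlap, but the highest null array (10.03) lay just under the lowest wildtype array (10.05). The change of -0.78 ± 0.26 (SE, adjusted p = 0.15) did not pass, with a 95% confidence interval from -1.37 to -0.20. In the deposited intensities the same probe read 2606.1, 1050, 1312.9 and 920.1 in the wildtype and 768.4, 715.8, 701.3 and 1073.7 in the null. On that scale the groups overlap, and wildtype replicate 1 is far above the rest.

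The second *Meis1* probe was at -0.74 ± 0.30 (SE, adjusted p = 0.24), with the wildtype from 6.76 to 7.72 and the null from 5.70 to 6.96. The third and dimmest, detected on 7 arrays, was at -0.13 ± 0.16 (adjusted p = 0.75), between 5.03 and 5.80 over all arrays. Both overlapped between the genotypes. *Meis3*, the third gene of the family, was near background: its 1 kept probe was detected on 6 arrays and averaged 5.12 ± 0.06 for wildtype and 5.11 ± 0.08 for null arrays (SD, n = 4 each). The 95% confidence interval of its change ran from -0.18 to 0.16. Its other 2 probes were each detected on 2 arrays and were not tested.

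*Shox2* had the same highest wildtype array and the same lowest null arrays as *Meis1* and *Meis2*. Its brightest probe read 10.96, 9.55, 10.30 and 10.05 in the wildtype and 9.85, 9.34, 9.19 and 9.87 in the null. Here the groups overlapped, because wildtype replicate 2 lay below null replicates 1 and 4. The change was -0.65 ± 0.28 (SE, adjusted p = 0.26), with a 95% confidence interval from -1.27 to -0.03. The second probe, dimmer but detected on all arrays, was at -0.61 ± 0.22 (adjusted p = 0.18), from 5.60 to 6.69 in the wildtype and from 5.13 to 5.61 in the null. The remaining probe was detected on 2 arrays and was not tested.

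**Figure D2:**
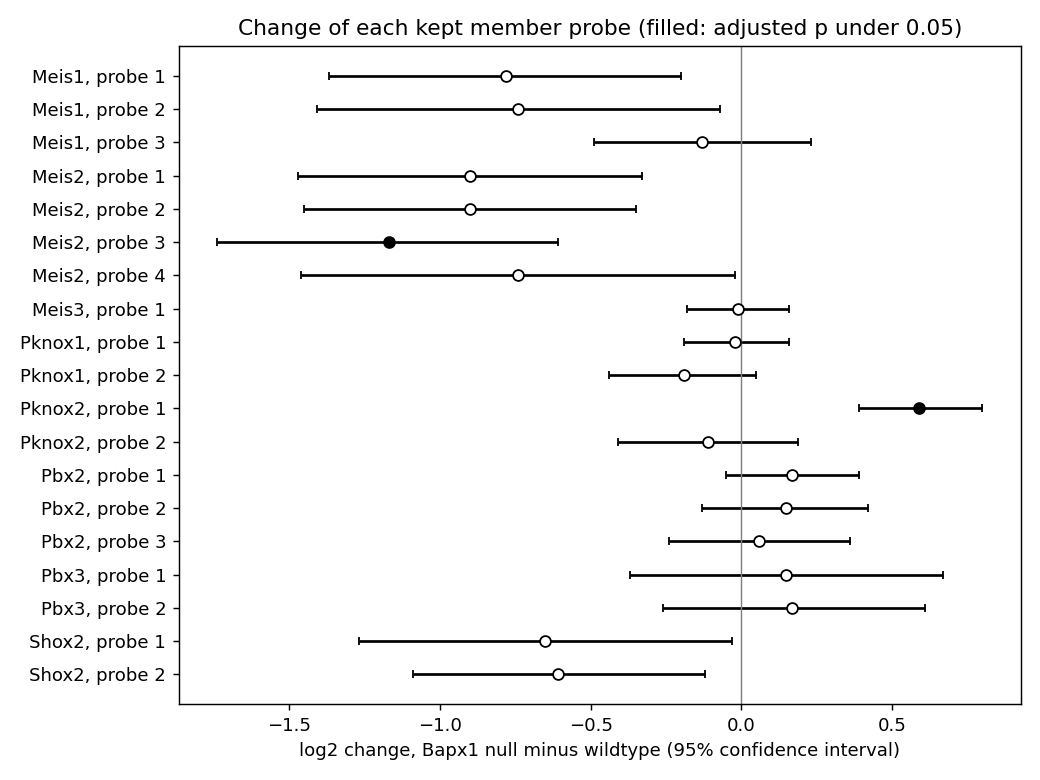
Log2 change, *Bapx1* null minus wildtype (horizontal axis), of each of the 19 kept member probes, numbered by brightness within a gene, with 95% confidence intervals from limma over 4 arrays a group; filled points passed an adjusted p of 0.05. The probes of *Meis1*, *Meis2* and *Shox2* lie left of 0, only the third *Meis2* probe (-1.17) and the first *Pknox2* probe (0.59) are filled, and the *Pbx* probes lie close to 0 on its right.

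These 3 genes, most megakaryocyte and platelet genes and the macrophage list mean shared their highest wildtype and lowest null arrays. The order of the remaining wildtype arrays differed among them. At all 9 kept probes of *Meis1*, *Meis2* and *Shox2*, wildtype replicate 1 was the highest wildtype array and null replicates 2 and 3 were the lowest null arrays. The same held for wildtype replicate 1 at 9 of the 9 kept megakaryocyte and platelet genes and for null replicates 2 and 3 at 8 of them. The mean of that list was 9.33, 8.59, 8.52 and 8.75 in the wildtype and 7.31, 6.10, 5.81 and 7.23 in the null, and its median change was -2.51. The macrophage list mean had the same highest and lowest arrays. It was 7.45, 6.80, 6.85 and 6.98 in the wildtype and 5.61, 5.40, 5.33 and 5.44 in the null. Single macrophage genes were mixed in this. Null replicates 2 and 3 were lowest for *Lyz2* (5.58, 5.46, 5.52 and 5.66 in the null). They were not for *Lyz1* (6.01, 5.78, 5.89 and 5.87) or *Adgre1* (5.01, 5.34, 4.97 and 5.33). Null replicates 2 and 3 were also lowest in the muscle, endothelial and epithelial list means, but wildtype replicate 1 was not the highest there. The erythroid list also had wildtype replicate 1 highest, but null replicate 4 was its lowest null array. Its means were 9.06, 8.39, 7.39 and 8.39 in the wildtype and 8.31, 8.21, 8.37 and 6.80 in the null. How many of all kept probes share these highest and lowest arrays was not counted. The platelet chemokine genes *Ppbp* and *Pf4* were at -3.55 ± 0.51 and -3.07 ± 0.51 (SE, adjusted p of 0.0054 and 0.011), with *Tubb1*, which encodes a tubulin of platelets, at -2.84 ± 0.45 (adjusted p = 0.0084).

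Macrophage genes (list mean 6.80 to 7.45 in the wildtype and 5.33 to 5.61 in the null, median change -1.61) included *Lyz1*, *Lyz2* and *Adgre1* at -2.56 ± 0.16, -2.54 ± 0.21 and -2.23 ± 0.16 (SE, adjusted p of 7.4e-05, 0.00033 and 0.00023); *Adgre1* was detected on 2 null arrays. The complement genes *C1qb* and *C1qc* and the macrophage list gene *Tyrobp* were detected on all wildtype and on none of the null arrays. They met the detection filter only through the wildtype arrays, where they are high, so their falls in the count above are not independent of the filter. Muscle genes lay at 7.85 to 8.04 and 7.32 to 7.60, with a median change of -0.60 and *Myl4*, *Mylpf* and *Acta1* leading at -0.92, -0.82 and -0.77. Endothelial genes lay at 7.02 to 7.40 and 6.71 to 7.02, with a median of -0.43 and *Esam*, *Sox18* and *Cdh5* past the threshold at -0.93, -0.76 and -0.43. The part of these cells in the decrease of *Meis1*, *Meis2* and *Shox2* was not tested, and in RNA of sorted pools fewer cells of a type and less RNA per cell cannot be told apart.

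**Figure D3:**
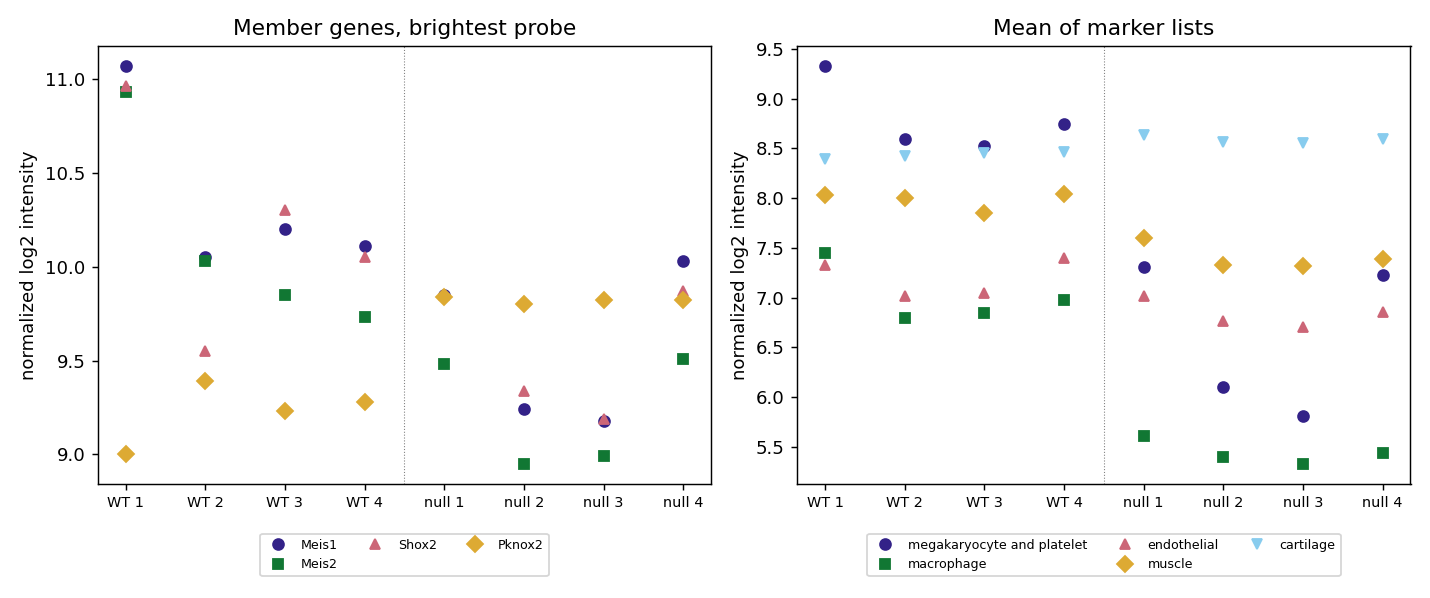
Normalized log2 intensity (vertical axes) by array (horizontal axes; WT, wildtype; null, *Bapx1* null), with the brightest probes of *Meis1*, *Meis2*, *Shox2* and *Pknox2* on the left and the mean over the kept genes of 5 marker lists on the right; levels of different genes are not comparable. *Meis1*, *Meis2* and *Shox2* peak in wildtype replicate 1 and are lowest in null replicates 2 and 3. So are the megakaryocyte and platelet list (9.33, and 6.10 and 5.81) and the macrophage list (7.45, and 5.40 and 5.33), while *Pknox2* is nearly level over the null arrays.

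The size of the decrease depended on those arrays. Without null replicates 2 and 3 the brightest probes were at -0.42 for *Meis1*, -0.64 for *Meis2* and -0.35 for *Shox2* (adjusted p of 0.41, 0.25 and 0.57), and the called *Meis2* probe was at -0.92 (adjusted p = 0.11). Without wildtype replicate 1 they were at -0.55, -0.64 and -0.40 (adjusted p of 0.26, 0.091 and 0.45), and the called probe kept its call at -0.93 (adjusted p = 0.035). Leaving out 1 array at a time removed the call in 5 of 8 fits, with changes from -1.33 to -0.93 over all 8. With a term for the mean Y-linked level, the brightest probes were at -0.27, -0.63 and -0.13 and the called probe at -0.90 (adjusted p = 0.16). That level itself went with the genotype (8.03 to 8.46 in the wildtype, 8.40 to 9.39 in the null). The term can thus take up part of any genotype difference, and this fit cannot separate the 2.

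*Pknox2* (*Prep2*), a Meis-related gene, had the lowest adjusted p among the members. Its brightest probe read 9.0, 9.39, 9.23 and 9.28 in the wildtype and 9.84, 9.80, 9.82 and 9.82 in the null. The groups were well separated and the null arrays nearly equal, also in null replicates 2 and 3. The change was 0.59 ± 0.09 (SE, adjusted p = 0.0072), a fold of 1.51, from 9.22 ± 0.16 to 9.82 ± 0.02 (SD, n = 4 each), and the exact permutation p was 0.029, the smallest possible. In the deposited intensities the probe read 661.7, 666.2, 685.6 and 532.6 in the wildtype and 761.1, 1040.2, 1063.6 and 936 in the null, so the groups did not overlap before scaling either. The call held in all 8 fits that left out 1 array (0.52 to 0.65, adjusted p from 0.012 to 0.028) and without null replicates 2 and 3 (0.61, adjusted p = 0.032). It was lost with the between-array scaling of the study's methods, at 0.63 with an adjusted p of 1. The rise rests on 1 of 6 probes. The second was detected on 4 arrays and was at -0.11 ± 0.13 (adjusted p = 0.74), the third was detected on 1 array, and the other 3 on none; those 4 were not tested.

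The 3 genes with the array pattern most like that of this *Pknox2* probe were the matrix metalloprotease gene *Mmp2* (Pearson r = 0.994), the adhesion gene *Sdk1* (0.994) and the actin-severing gene *Scin* (0.992), among 11036 other genes over the 8 arrays. All 3 were higher in the null, by 0.37, 0.57 and 0.83 on the log2 scale. The arrays hold both genotypes, so a difference between the genotypes alone raises such an r.

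*Pknox1* (*Prep1*), the widely expressed relative, did not pass. Its brighter probe lay between 7.42 and 7.63 in the wildtype and between 7.45 and 7.60 in the null, with a 95% confidence interval of the change from -0.19 to 0.16. The dimmer one was at -0.19 ± 0.11 (SE, adjusted p = 0.41), with null replicate 1 lowest at 6.37.

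The Pbx partners lay slightly higher in the null at all 5 kept probes, none of which passed. *Pbx2* read 9.21, 9.08, 9.10 and 8.88 in the wildtype and 9.42, 9.12, 9.19 and 9.24 in the null at its brightest probe, and the groups overlapped. The change was 0.17 ± 0.10 (SE, adjusted p = 0.41), with a 95% confidence interval from -0.05 to 0.39. The other *Pbx2* probes were at 0.15 and 0.06 (adjusted p of 0.61 and 0.88). *Pbx3*, which takes part in limb and hindbrain development, was dim, and its brightest probe read 5.98, 5.49, 5.45 and 5.15 in the wildtype and 5.03, 5.86, 6.04 and 5.75 in the null. The change was 0.15 ± 0.23 (adjusted p = 0.80), and its interval from -0.37 to 0.67 allows a change in either direction. Without null replicates 2 and 3 it turned to -0.13, and with a term for the Y-linked level to -0.25. The second *Pbx3* probe, detected on 7 arrays, was at 0.17 ± 0.19 (adjusted p = 0.71), and the third was not detected on any array.

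Since Meis, Pknox, Pbx and Nk factors read short DNA words, promoter windows of the members were searched (RefSeq, GRCm38.p6, 250 bases before to 50 after the annotated start, both strands). Windows of *Meis1*, *Meis2*, *Meis3*, *Pbx2* and *Shox2* were at hand. The core word of Meis and Pknox proteins, TGACAG, and the Hox-Pbx word, TGATNNAT, were in 0 of these 5 windows, against 19.2% and 8.85% of 32851 windows of the same length. The Nk homeodomain word TAAGTG was in 1 of 5, that of *Meis2*, against 9.2% of all. None of the 3 words contains another. The *Meis2* stretch, shown because this gene held the one lowered call, is given below on the strand of the gene (chr2:116064766-116064795, minus strand), with the match, TAAGTG read on the other strand, in capitals and starting 164 bases before the start.
Meis2 promoter: ttaaatctccaaCACTTAcctagatataaa
A match of this kind is a description of the letters and no sign of binding.

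Among 7 other TALE genes that passed the filter, 3 rose, 4 did not pass and none fell (median change 0.47). The risers were the Iroquois genes *Irx3* at 1.15 ± 0.23, *Irx5* at 0.97 ± 0.18 (SE, adjusted p of 0.025 and 0.018), and *Irx6*. The last went undetected in the wildtype (4.90 to 5.05) and was detected on all 4 null arrays (5.38 to 5.59, adjusted p = 0.0094), so that no fold is given for it. *Irx6* met the detection filter only through the null arrays, where it is high, so its rise is not independent of the filter. *Irx3* read 7.10, 7.05, 7.24 and 6.82 in the wildtype and 8.35, 7.92, 7.66 and 8.87 in the null, so null replicates 2 and 3 were the lower null arrays here too. The other 4 were *Irx2* (0.47), *Tgif2* (0.07), *Tgif1* (-0.03) and the tendon regulator *Mkx*, which read 9.23 in both groups.

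Hox proteins are partners of Meis and Pbx proteins, and the posterior genes of the Hoxa and Hoxd clusters mark limb segments from proximal to distal. Of 8 kept genes of these clusters, which include the less posterior *Hoxd8*, 1 rose and none fell (median 0.04). The riser was the distal gene *Hoxd12*, at 0.60 ± 0.12 (SE, adjusted p = 0.029), from 9.53 to 10.01 in the wildtype and from 10.21 to 10.54 in the null. *Hoxa13* and *Hoxd13*, which mark the future hand, were at 0.42 ± 0.17 and 0.33 ± 0.19 (adjusted p of 0.22 and 0.43). *Hoxd8* and *Hoxd9* were at -0.30 ± 0.09 and -0.20 ± 0.08 (adjusted p of 0.13 and 0.24), with no overlap between groups, and *Hoxa9*, *Hoxd10* and *Hoxa11* lay between -0.02 and 0.08.

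Of 12 kept genes of the retinoic acid pathway, 1 rose and none fell (median 0). The riser was *Aldh1a3*, a retinaldehyde dehydrogenase gene, at 0.80 ± 0.14 (SE, adjusted p = 0.014). *Aldh1a2*, the main retinoic acid synthesis gene of the embryonic trunk and limb flank, was at -0.58 ± 0.16 (adjusted p = 0.093), from 7.14 to 7.91 in the wildtype and from 6.87 to 7.19 in the null. The retinoic acid receptor gene *Rarb*, itself a target of the pathway, was at 0.42 ± 0.13 (adjusted p = 0.13), and *Cyp26b1*, which breaks retinoic acid down in the distal bud, at -0.09 ± 0.10 (adjusted p = 0.71).

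Of 13 kept genes of distal FGF signalling, 1 fell and none rose, and the median was -0.07. *Dusp6*, a feedback phosphatase gene induced by FGF, was at -0.50 ± 0.09 (SE, adjusted p = 0.019). The ligand genes *Fgf8* and *Fgf10* were at -0.23 ± 0.10 and -0.07 ± 0.09 (adjusted p of 0.27 and 0.75). Of the 13 limb bud mesenchyme factors, 1 rose, 3 fell and 9 did not pass (median -0.05). The T-box gene *Tbx3* was at -0.76 ± 0.14 and *Tbx2* at 0.65 ± 0.10, and the paired-type homeobox gene *Alx4* was at -0.67 ± 0.12 (adjusted p of 0.016, 0.006 and 0.014); *Tbx2* was detected on 2 of the 4 wildtype arrays.

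None of 8 kept genes tied to *Shox2* in limb cartilage or heart passed (median 0.01). *Bmp4*, a growth factor gene that *Shox2* is known to act through in mouse, was at -0.35 ± 0.12 (SE, adjusted p = 0.17), and *Tbx18* at 0.26 ± 0.30 (adjusted p = 0.73). None of 12 cartilage genes passed (median 0.17), with the matrix genes *Col9a2* and *Matn1* at 0.45 and 0.42 (*Matn1* detected on 1 wildtype array), and 2 of 7 joint genes rose (median 0.37), *Dkk3* at 1.25 ± 0.18 and *Sfrp2* at 0.62 ± 0.09 (adjusted p of 0.0052 and 0.0058). No gene passed among 8 erythroid genes (median -0.25), 6 epithelial genes (median -0.06) or *Sox10*, the 1 kept gene of Schwann and neural crest cells (0.26). The Y-linked gene *Eif2s3y* rose by 0.83 ± 0.18 (adjusted p = 0.037).

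**Figure D4:**
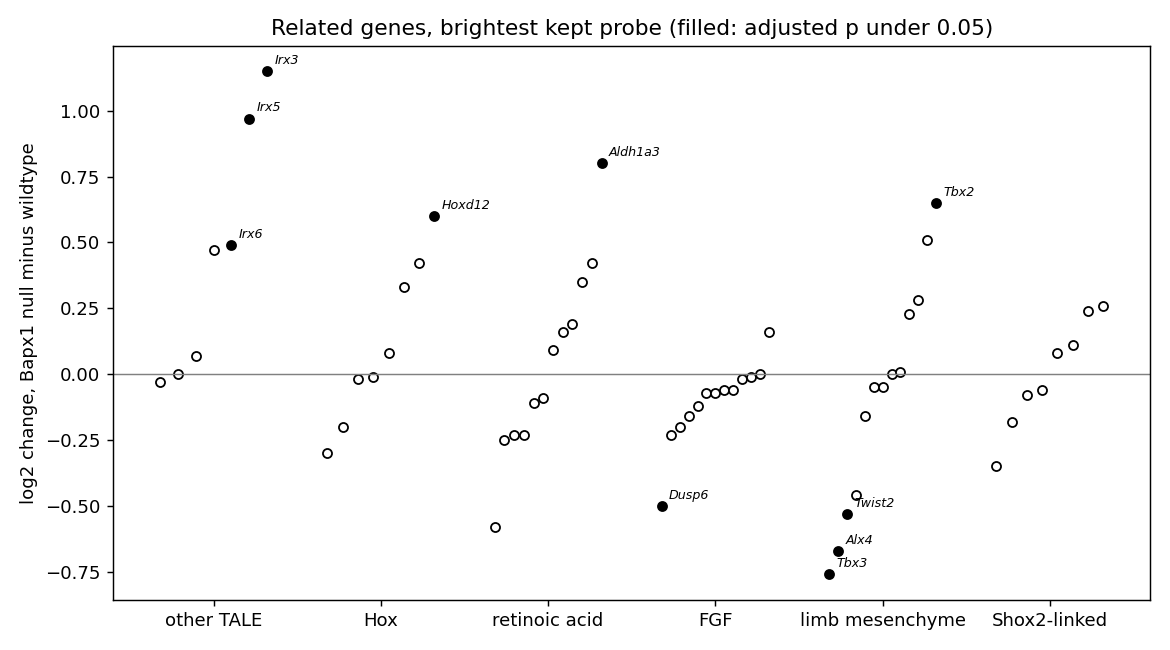
Log2 change, *Bapx1* null minus wildtype (vertical axis), of the brightest kept probe of each gene in 6 lists (horizontal axis) over 4 arrays a group, ordered by change within a list; filled, named points passed an adjusted p of 0.05. The 3 Iroquois genes, *Hoxd12*, *Aldh1a3* and *Tbx2* lie above 0, and *Dusp6*, *Tbx3*, *Alx4* and *Twist2* below. *Irx6* met the detection filter only through the null arrays.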

How the data were processed

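Total RNA of sorted cells was labelled and hybridized to Illumina MouseWG-6 v2.0 arrays. The authors deposited a table of linear probe intensity from GenomeStudio; the methods name background subtraction, but no value is below 0 (lowest 27.9), so it was taken as uncorrected. Beside it they deposited a detection value, a fraction from 0 to 1 that rises with brightness and was taken for 1 minus p. A second table that the authors deposited holds processed log2 values whose baseline per probe is unknown (column medians from -0.0154 to 0.0136). The tables use different probe names, and all 45281 rows were paired by their differences between arrays (largest distance 2.7e-06, next best at least 0.018). Of the probes, 34885 have 1 gene symbol, 18 several and 10378 none. The sources used here name no genome build for the probes.

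In R 4.3.3, limma 3.58.1 corrected the background (nec, offset 16), followed by quantile normalization and log2. Genotypes were compared with lmFit and eBayes on all 8 arrays. Quantile normalization and the fit were also run on simulated log2 values of kept probes, with independent noise for each probe. That run did not cover background correction, the detection filter or deviations that probes of an array share. For lists, the brightest kept probe stood for a gene. Members, lists and tests were chosen with earlier results of these data known. Genes named are all members, up to 3 called genes of each other list by size (up to 2 where none passed), and the 3 genes most like each member whose brightest probe passed. *Irx2*, *Tgif1*, *Tgif2*, *Mkx*, *C1qb*, *C1qc*, *Tyrobp*, *Tbx5*, *Twist2*, *Rarb*, *Cyp26b1*, *Aldh1a2*, *Fgf8*, *Fgf10*, *Xist* and the Hox genes other than *Hoxd12* were named after their values were seen. Alternatives covered scaling, background, source table, filter, variance model, a block for the replicate number, weights per array, the t-test of the methods, the Y-linked level and arrays left out. The number of arrays limits the precision.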

Additional observations from a re-analysis of the deposited data

Results flagged for a closer look

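In 5 of 38 groups of 4 arrays (19 probes in each genotype) the highest or lowest array lay far from the other 3, where chance gives about 5%. The groups are not independent, since probes share arrays and genes. *Meis1* probe 1 read 11.07 in wildtype replicate 1 against 10.05 to 10.20 in the other wildtype arrays. *Meis2* probe 4 read 7.13 in wildtype replicate 1 against 6.28 to 6.41. *Pbx2* probe 3 read 6.34 in null replicate 2 against 5.83 to 5.92. Near background, *Meis3* probe 1 read 4.98 in null replicate 4 against 5.14 to 5.16, and *Pknox2* probe 2 read 4.67 in null replicate 2 against 5.06 to 5.14.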

How the results depend on the processing

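Over all kept probes the count of 817 calls became 115 with the scaling of the methods, 333 in the authors' processed table, 1877 with array weights, 378 with the methods' t-test (3457 at an unadjusted p under 0.05), 434 with the replicate block, 1580 with a term for the Y-linked level, and 452 to 656 when 1 array was left out. The 2 member calls became 0 with the scaling of the methods (3 at an unadjusted p under 0.05), 9 with array weights, and 1, of *Pknox2*, in the authors' table, with no filter, with the methods' t-test (4 unadjusted), with the replicate block, with the Y-linked level and without null replicates 2 and 3; leaving out 1 array gave 1 to 2. Array weights gave null replicates 2 and 3 weights of 5.01 and 2.15, against 0.33 to 1.09 for the others. With them *Meis1* probes 1 and 2, *Meis2* probes 1, 2 and 4 and both *Shox2* probes also passed.

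Same-numbered samples did not deviate together (correlations of 0.06, 0.24, -0.18 and -0.26), so the number was not taken as pairing; with the replicate block the *Meis2* probe 3 call was lost (-1.17, adjusted p = 0.061) and that of *Pknox2* probe 1 was not (0.59, adjusted p = 0.039).

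Over 394 values of single probes under the alternatives, 352 kept direction and call, 13 lost a call, 7 gained one and 22 changed sign. All sign changes were of probes with no call. With a term for the Y-linked level they were *Meis1* probe 3 (0.06), *Meis2* probe 4 (0.00066), *Pknox2* probe 2 (0.07) and *Pbx3* probes 1 and 2 (-0.25 and -0.11). Without null replicates 2 and 3 they were *Meis1* probe 3 (0.0023), *Pknox2* probe 2 (0.01), *Pbx2* probe 3 (-0.04) and *Pbx3* probes 1 and 2 (-0.13 and -0.02). *Pknox1* probe 1 turned with the scaling of the methods (0.0019), in the authors' table (0.0018) and with array weights (0.04), and *Meis3* probe 1 with array weights (0.01). When 1 array was left out, *Meis1* probe 3 ran from -0.25 to 0.01, *Meis3* probe 1 from -0.04 to 0.03, *Pknox1* probe 1 from -0.05 to 0.02 and *Pbx2* probe 3 from -0.06 to 0.11. The causes were not tested. Signal near background limits *Meis3*, *Pbx3*, *Meis1* probe 3, *Shox2* probes 2 and 3 and 5 of the 6 *Pknox2* probes.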
